A study of Mus musculus with 48 samples.

Results

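The nuclear-encoded subunits of the oxidative phosphorylation machinery were followed in splenic T cells of mice given interleukin-2 (IL-2). A gene was taken as a member if its symbol followed the naming of the subunits of complex I (Nduf), complex II (Sdh), complex III (Uqcr), complex IV (Cox) or complex V (Atp5), if it was not named as a pseudogene, and if its mean level over the 32 Treg libraries was at least 1 CPM (counts scaled to the size of the library). Of 53345 rows of the count matrix, 95 matched the names, 7 of them carried the pseudogene ending, 11 fell under the level, and 77 were members. The rule used names and the mean over all Treg libraries, and no contrast between treatments. The members were 37 genes of complex I, 4 of complex II, 8 of complex III, 11 of complex IV and 17 of complex V.

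All mice were female C57BL/6 animals of 8 to 12 weeks. They were given 2 intraperitoneal doses of 500 µg of an isotype antibody or of an MHC II blocking antibody, which keeps MHC class II from presenting antigen to the T-cell receptor (TCR). They then received a single subcutaneous dose of PBS or of 25 µg of an Fc-fused human IL-2, which was the wildtype molecule (WT IL-2), the attenuated mutein H16R, which differs by a single substitution, or the attenuated 3x mutein, which differs by 3. On day 4 Tregs were taken from the spleen as the CD25-binding fraction of a purification kit, with 4 libraries in each of 8 groups, and the CD25-negative CD4 T cells (Tcons) of 2 mice of each group were sequenced as well, which gave 32 Treg and 16 Tcon libraries. In the isotype WT IL-2 Tregs, 2 libraries carry an identical animal number in their labels. They were entered as separate mice, since the study's methods describe each sample as coming from its own animal, under the names replicate 3a and replicate 3b. Whether they come from the same animal was not tested. Because the Treg fraction was defined by CD25 binding and not by Foxp3, other CD25-bearing or carried-over cells may be in it, although a staining of aliquots in the study found Foxp3 in the great majority of the cells of most samples. The summed level of 5 Treg genes (Foxp3, Il2ra, Ikzf2, Ctla4, Tnfrsf18) lay between 2427 and 4476 CPM in the Treg libraries and between 343 and 1448 CPM in the Tcon libraries. In bulk RNA, a change in the number of cells of a type and a change in the RNA of each cell cannot be told apart.

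Oxidative phosphorylation passes electrons from NADH (complex I) and succinate (complex II) through complexes III and IV to oxygen, and the proton gradient built on the way drives ATP synthesis by complex V. Most subunits are encoded in the nucleus and imported, and the mitochondrial genome supplies core subunits of every complex except complex II, so that assembly needs both genomes. Tregs are known to lean on oxidative metabolism more than activated effector T cells do, and complex III is needed for their suppressive function. The mitochondrially encoded subunits were not analysed here.

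The nuclear respiratory factor NRF1, the ETS factor GABP (NRF2) and YY1 are known regulators of many of these genes. Promoters of 300 bases, from 250 bases before to 50 bases after the start of the gene, were available for 64 of the 77 members (RefSeq, GRCm38.p6). The letters GCGCATGCG (NRF1), CCGGAAG (GABP) and AAGATGGCG (YY1) were searched on both strands. They occurred in 8 (12.5%), 16 (25%) and 7 (10.9%) of the 64 promoters, and in 2.61%, 12.9% and 2.14% of the 17492 promoters of protein-coding genes (1.95%, 9.93% and 1.64% of all 27025 promoters). At least 1 of the 3 motifs was held by 26 members (40.6%), against 16.6% of protein-coding genes and 12.7% of all genes. The promoters of 5 members whose levels are followed in detail below are shown because they cover the 3 motifs and, with Cox5a, a promoter that holds none of them. Capitals mark the motif matches. In Ndufa11 (chr17:56717512-56717811, plus strand) overlapping NRF1 matches lie on both strands. The capitals are an NRF1 match on the minus strand in Ndufa8 (chr2:36049289-36049588, minus strand), a YY1 match in Ndufc1 (chr3:51408906-51409205, minus strand), and GABP matches at 2 places in Cox8a (chr19:7217567-7217866, minus strand), where Cox5a (chr9:57520982-57521281, plus strand) has no capitals. A match describes the letters in this window only.
Ndufa11: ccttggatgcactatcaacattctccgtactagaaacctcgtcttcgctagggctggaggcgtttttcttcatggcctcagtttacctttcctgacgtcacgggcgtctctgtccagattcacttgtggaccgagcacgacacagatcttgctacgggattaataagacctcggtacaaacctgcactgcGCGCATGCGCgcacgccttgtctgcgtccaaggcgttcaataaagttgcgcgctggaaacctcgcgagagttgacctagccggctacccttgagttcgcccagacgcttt
Ndufa8: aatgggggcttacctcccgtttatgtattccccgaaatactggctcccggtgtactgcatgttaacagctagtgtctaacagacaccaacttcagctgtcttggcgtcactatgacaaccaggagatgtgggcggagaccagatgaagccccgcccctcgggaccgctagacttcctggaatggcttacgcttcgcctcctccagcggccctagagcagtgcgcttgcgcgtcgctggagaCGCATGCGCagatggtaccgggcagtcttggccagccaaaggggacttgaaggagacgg
Ndufc1: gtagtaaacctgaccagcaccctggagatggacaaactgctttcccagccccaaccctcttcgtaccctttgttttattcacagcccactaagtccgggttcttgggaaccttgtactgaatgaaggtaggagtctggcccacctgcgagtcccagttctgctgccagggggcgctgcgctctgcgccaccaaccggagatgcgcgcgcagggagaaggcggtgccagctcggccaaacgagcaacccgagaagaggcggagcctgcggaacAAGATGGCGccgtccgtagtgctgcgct
Cox8a: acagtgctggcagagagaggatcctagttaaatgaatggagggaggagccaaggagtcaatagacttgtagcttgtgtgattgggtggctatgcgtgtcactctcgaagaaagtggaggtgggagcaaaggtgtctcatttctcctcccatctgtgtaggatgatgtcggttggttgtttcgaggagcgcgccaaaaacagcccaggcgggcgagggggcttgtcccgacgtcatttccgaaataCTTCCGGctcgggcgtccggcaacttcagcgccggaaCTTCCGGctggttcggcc
Cox5a: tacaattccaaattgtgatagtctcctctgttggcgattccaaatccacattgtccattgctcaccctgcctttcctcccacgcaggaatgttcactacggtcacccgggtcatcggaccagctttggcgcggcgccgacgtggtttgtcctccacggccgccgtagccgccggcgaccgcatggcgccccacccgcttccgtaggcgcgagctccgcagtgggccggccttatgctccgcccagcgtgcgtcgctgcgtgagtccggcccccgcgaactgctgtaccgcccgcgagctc

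Per length of transcript (FPKM, fragments scaled to transcript length and library size, mean over the 32 Treg libraries), the median member stood at 46.2 FPKM in complex I, 59.6 in complex II, 76.1 in complex III, 150 in complex IV and 117 in complex V. The highest member of complex III was Uqcrh, the hinge protein, at 351 FPKM. In complex IV it was Cox7a2l, a Cox7a relative, at 321 FPKM. Atp5b, the catalytic beta subunit of the ATP synthase, reached 314 FPKM in complex V, and Sdha, the flavoprotein that oxidises succinate, 67.8 FPKM in complex II. Under the complex I names the highest was Ndufa4 at 103 FPKM, a protein that is now known as a subunit of complex IV.

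Where a subunit has alternative isoforms, the ubiquitous form carried nearly all of the transcript. Cox4i1 stood at 281 FPKM against 0.0211 for Cox4i2, Cox6a1 at 145 against 0.343 for the heart and muscle form Cox6a2, and Cox6b1 at 150 against 1.24 for the testis form Cox6b2. Cox7a2 reached 77.6 FPKM against 0.370 for the muscle form Cox7a1, and Cox8a 222 against 0.00177 for Cox8b. The 3 genes that encode the same mature subunit c of the ATP synthase were all present, with Atp5g3 at 209, Atp5g1 at 64.6 and Atp5g2 at 16.2 FPKM. The gene just above the level for membership was Atp5s, a small factor that couples the ATP synthase, at 3.02 CPM, and the one just under it was Cox6b2 at 0.652 CPM. Reads of genes with near-identical copies, such as the Atp5g genes and members with processed pseudogenes, were divided by the authors' counting, which makes their levels less certain.

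The Treg libraries held 18.28 M to 51.24 M counts and the Tcon libraries 31.31 M to 51.95 M. The 77 members took 0.533% to 0.796% of the counts of a Treg library. A library that stood apart touches every isotype comparison with PBS. In isotype PBS replicate 4, the shallowest library, the members' mean log2 level was -0.34 relative to the mean of its group, against 0.14, 0.07 and 0.13 in the other 3 mice. Cytoplasmic and mitochondrial ribosomal protein genes were also low in it, at -0.30 and -0.20 on the same scale. So were the 711 other genes with transcripts under 1000 bases, with a median of -0.26 against 0.14, 0.05 and 0.09 in the other 3 mice. In this library 9330 rows of the matrix held no value, against 7246 to 7284 in the others of its group. Counts of members called in Tregs that rest on the isotype PBS mice are therefore given with and without this library. Counts without overlap and the values of cell cycle and short genes are given with it only. The library has no Tcon partner and did not enter the comparisons of Tregs with Tcons. The plot of the members' mean level in each library shows this mouse below the rest of its group. It also shows the highest group means, 0.38 and 0.33, with 3x and H16R under MHC II block, although their lowest libraries (0.24 and 0.18) overlapped the highest isotype 3x library (0.25).

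**Figure D1:**
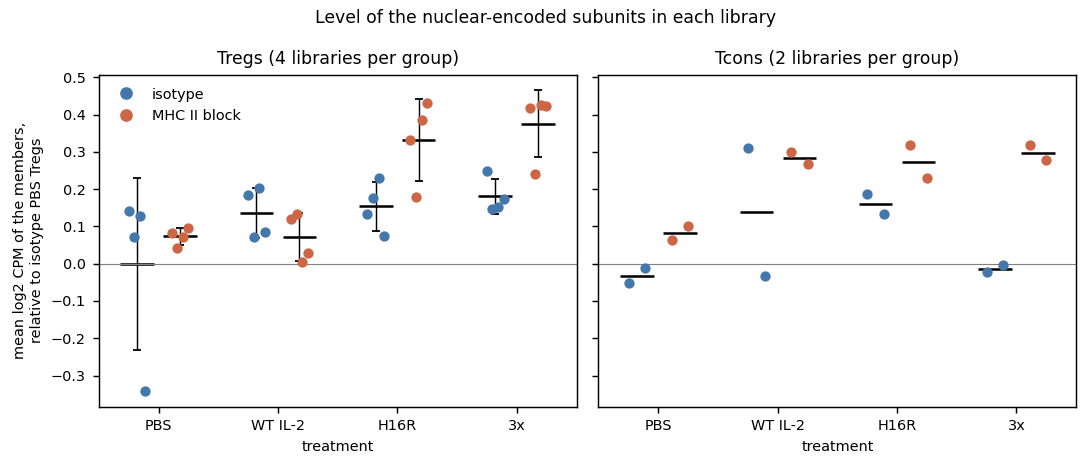
Mean log2 CPM of the members in each library, relative to the mean of the isotype PBS Tregs (y axis), by antibody, treatment and cell type (x axis). Each point is 1 library, and the line is the group mean; isotype PBS replicate 4 lies at -0.34, and the MHC II block 3x libraries lie between 0.24 and 0.43.

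Under MHC II block, the attenuated muteins were accompanied by higher levels of most members, and WT IL-2 was not. Relative to MHC II block PBS Tregs, 60 of the 75 members tested rose and 4 fell with 3x, with a median log2 fold change of 0.35. With H16R, 57 rose and 3 fell, with a median of 0.32. With WT IL-2, 5 rose and 3 fell, with a median of 0.02. These calls are by edgeR's quasi-likelihood test at a Benjamini-Hochberg adjusted p under 0.1, over 12390 genes. Of all genes tested, 34.7% were called higher and 38.3% lower with 3x, 32.7% and 33.8% with H16R, and 21.9% and 13.8% with WT IL-2, with medians of -0.04, -0.02 and 0.02. The 3 comparisons share the same 4 PBS mice. For 55 of the 77 members the 4 libraries of 3x all lay above the 4 of PBS, and for 51 members those of H16R did, against 30.7% and 27.7% of all genes tested. Scaled to library totals, the WT IL-2 calls turned to 0 higher and 7 lower, whereas those of H16R (54 and 4) and 3x (59 and 4) held their direction. The shares of all genes called under this scaling are not given here.

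Cox5a, a matrix-side subunit of cytochrome c oxidase, changed the most with 3x. Its level was 54.0, 53.2, 57.6 and 52.4 CPM in the MHC II block PBS mice, 63.9, 62.9, 55.4 and 57.7 with WT IL-2, 79.1, 72.3, 80.3 and 82.7 with H16R, and 96.6, 77.5, 87.5 and 97.4 with 3x. The H16R and 3x mice all lay above the PBS and WT IL-2 mice, whereas WT IL-2 overlapped PBS. The log2 fold change was 0.73 ± 0.10 (SE) with 3x (adjusted p = 1.7e-07) and 0.54 ± 0.10 with H16R (2.4e-05). With WT IL-2 it was 0.17 ± 0.10 and did not pass (0.21).

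The same order was seen in Ndufa11 and Ndufc1, accessory subunits of the membrane arm of complex I. Ndufa11 read 26.6, 26.6, 25.0 and 24.3 CPM with PBS, 28.8, 28.1, 22.2 and 24.4 with WT IL-2, 35.8, 31.4, 37.3 and 38.6 with H16R, and 40.9, 32.4, 42.5 and 40.3 with 3x. PBS and WT IL-2 overlapped, and every mutein library stood above both. Ndufc1 read 10.8, 10.5, 11.3 and 10.1 CPM with PBS, 14.8, 12.4, 15.0 and 16.1 with H16R, and 16.9, 14.4, 18.7 and 17.2 with 3x. The log2 fold changes with 3x were 0.61 ± 0.09 for Ndufa11 (adjusted p = 8.8e-07) and 0.66 ± 0.10 for Ndufc1 (1.2e-06).

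Cox8a, a small subunit of complex IV, read 96.8, 96.5, 98.2 and 104 CPM with PBS, 152, 136, 167 and 172 with H16R, and 150, 142, 164 and 160 with 3x. The PBS libraries lay below all of the mutein libraries, and the fold changes of H16R (0.68 ± 0.13) and 3x (0.65 ± 0.13) were alike in size. Ndufa8, an accessory subunit of complex I that faces the intermembrane space, rose by 0.59 ± 0.08 with 3x and 0.47 ± 0.08 with H16R. Ndufa4 rose by 0.66 ± 0.08 with 3x, and also passed the test with WT IL-2 (0.19, adjusted p = 0.093).

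All 5 complexes took part. With 3x under MHC II block, 28 of the 36 complex I genes tested rose and 2 fell (median 0.34), as did 3 and 1 of the 4 of complex II (0.33), 6 and 0 of the 8 of complex III (0.33), 10 and 0 of the 11 of complex IV (0.50), and 13 and 1 of the 16 of complex V (0.34). With H16R, 11 of 11 complex IV genes rose (median 0.42). The complex IV gene that did not pass with 3x was Cox7a2l. The grid of fold changes by gene shows the same shift across rows and the few rows that go the other way.

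**Figure D2:**
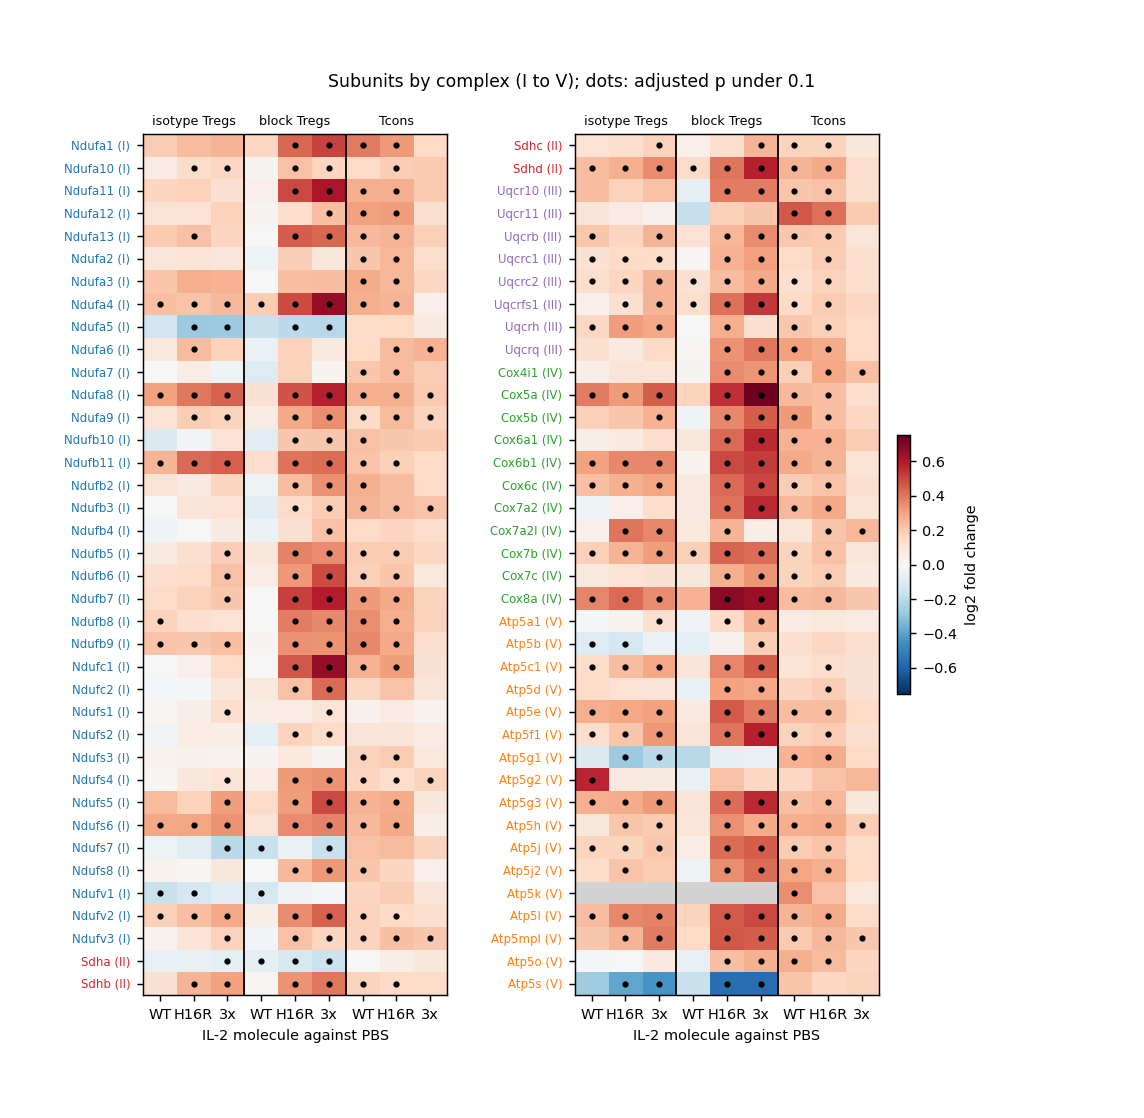
Log2 fold change of each IL-2 molecule against PBS (columns) for the 76 members with a test in at least 1 cell type (rows, coloured by complex I to V), in isotype Tregs, MHC II block Tregs and Tcons. Dots mark an adjusted p under 0.1 by edgeR's quasi-likelihood test, grey marks no test, and the columns of H16R and 3x under MHC II block hold the most dots among Tregs (60 and 64).

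A few members fell. Sdha, which also belongs to the citric acid cycle, read 212, 214, 213 and 218 CPM in MHC II block PBS Tregs, 201, 191, 190 and 201 with H16R and 194, 186, 189 and 195 with 3x. The mutein libraries all lay below the PBS libraries, with log2 fold changes of -0.12 ± 0.03 for H16R (adjusted p = 0.0015) and -0.16 ± 0.03 for 3x (4.5e-05). Its partners went the other way with 3x, with Sdhd, a membrane anchor of complex II, at 0.58 ± 0.06, the iron-sulfur subunit Sdhb at 0.39 ± 0.08 and the other anchor Sdhc at 0.26 ± 0.07.

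Atp5s, the lowest member, read 4.33, 3.07, 3.6 and 4.14 CPM with PBS, 2.68, 2.62, 2.53 and 2.33 with H16R, and 2.48, 2.91, 2.28 and 2.43 with 3x. Both muteins lay below all PBS mice, with log2 fold changes of -0.56 and -0.57 ± 0.15 (adjusted p = 0.0022 and 0.0014). Ndufa5, a complex I accessory subunit, fell by 0.20 with H16R and 0.21 with 3x (0.086 and 0.062). Ndufs7, a core subunit that carries the last iron-sulfur cluster before ubiquinone, fell with 3x by 0.17 (0.047).

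The genes for subunit c, which all give the same mature protein, did not move together. Atp5g3 read 132, 134, 130 and 134 CPM in MHC II block PBS Tregs and 187, 168, 211 and 210 with 3x, with no overlap and a log2 fold change of 0.56 ± 0.07 (adjusted p = 2.1e-08). Atp5g1 read 60.1, 57.3, 59.5 and 66.9 with PBS and 57.5, 53.2, 60.4 and 62.4 with 3x, which overlapped (-0.06 ± 0.10, adjusted p = 0.63). Atp5g2 varied within groups, from 6.02 to 16.9 CPM among the 4 PBS mice, and its fold change with 3x was 0.16 ± 0.27 (0.62).

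In isotype mice the median rises with the muteins were smaller than under MHC II block, and that with WT IL-2 was larger. Relative to isotype PBS Tregs, 24 members rose and 2 fell with WT IL-2 (median log2 fold change 0.12), 31 rose and 5 fell with H16R (0.14), and 39 rose and 5 fell with 3x (0.17). Over all genes tested, 26.1% were called higher and 26.2% lower with WT IL-2, 31.4% and 32.8% with H16R, and 31.3% and 32.3% with 3x, so that the share of members called higher with WT IL-2, 32.0%, stood little above that of all genes. Without isotype PBS replicate 4, the counts were 8 rising and 4 falling with WT IL-2 (median 0.02), 24 and 6 with H16R (0.05), and 28 and 6 with 3x (0.08). Scaled to library totals they were 17 and 3, 20 and 7, and 30 and 7. With 2 libraries left out that stood apart by markers of other cells, isotype PBS replicate 1 and MHC II block WT IL-2 replicate 1, they were 31 and 2, 44 and 3, and 51 and 1. The shares of all genes called in these other fits are not given here. The 4 treated libraries lay above all 4 PBS libraries for 27 of the 77 members with 3x, 17 with H16R and 9 with WT IL-2, against 22.4%, 23.3% and 18% of all genes tested, so that the count for H16R was near the background and that for WT IL-2 under it.

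The members that rose the most in isotype Tregs belonged to complexes I, IV and V. Cox5a read 60.0, 52.2, 52.2 and 35.3 CPM with PBS, where the last value is replicate 4, 71.2, 63.2, 66.2 and 64.3 with WT IL-2, 63.7, 59.5, 69.0 and 58.8 with H16R, and 74.4, 64.4, 67.3 and 67.7 with 3x. WT IL-2 and 3x lay above every PBS mouse, and H16R overlapped the highest of them. The log2 fold changes were 0.39 (adjusted p = 0.002), 0.32 (0.0065) and 0.45 (0.00027). These calls were kept under all 41 alternative settings, but the low value of replicate 4 adds to the fold changes, and their sizes without it are not given here.

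Ndufa8 read 34.8, 33.5, 32.5 and 24.5 CPM with PBS, 39.9, 39.0, 41.0 and 36.1 with WT IL-2, 41.2, 41.0, 45.3 and 38.4 with H16R, and 47.4, 41.0, 41.7 and 40.4 with 3x. All treated mice lay above all PBS mice, with log2 fold changes of 0.30, 0.40 and 0.44. Ndufb11, another membrane-arm subunit of complex I, rose by 0.43 with H16R and 0.45 with 3x (adjusted p = 4.5e-05 and 2.4e-05), and Atp5l, subunit g of the ATP synthase, by 0.36 and 0.37. Cox8a rose by 0.36 with WT IL-2 and 0.42 with H16R, and without replicate 4 its fold change with WT IL-2 was 0.21 and did not pass (0.11).

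The largest fitted rise with WT IL-2 was that of Atp5g2 at 0.57 ± 0.27 (adjusted p = 0.09), which was lost under 9 of the alternative settings and kept under 32. Its level was 11.1, 12.1, 10.1 and 12.2 CPM with PBS and 15.7, 12.3, 25.8 and 14.1 with WT IL-2, with no overlap. Without WT IL-2 replicate 3a, the mouse at 25.8, the fold change was 0.30 and did not pass (0.41).

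Among the members that fell in isotype Tregs, Ndufv1, the flavin subunit where complex I takes up electrons from NADH, read 69.6, 67.2, 73.2 and 65.6 CPM with PBS and 62.5, 60.1, 63.5 and 60.8 with WT IL-2. The groups did not overlap, and the log2 fold change was -0.17 (adjusted p = 0.0041) with WT IL-2 and -0.12 with H16R. Atp5b fell by 0.10 and 0.13 with these molecules, where the call with WT IL-2 (adjusted p = 0.092) was lost under 25 of the alternative settings and kept under 16. Atp5s fell by 0.39 with H16R (0.029) and 0.44 with 3x (0.014), Ndufa5 by 0.28 and 0.27, and Atp5g1 by 0.27 and 0.20. With 3x, Ndufs7 and Sdha fell as well, by 0.20 and 0.07. The calls with 3x were lost under 21 settings and kept under 20 for Atp5g1, and lost under 11 and kept under 30 for Sdha.

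Markers of other cells differed between these groups and stand beside the counts above. The 4 B cell genes (Ms4a1, Cd79a, Cd79b, Pax5) summed to 83.0 to 423 CPM in isotype PBS Tregs and to 21.2 to 26.6 with 3x, and all 4 fell with every molecule. The upper end was isotype PBS replicate 1 alone (83.0 to 105 CPM in the other 3 libraries), which also had the highest sum of monocyte and macrophage genes, 89.4 CPM against 15.8 to 26.4. The plasma cell genes, 3 in number, were the most abundant of these, with sums of 1519 to 1844 CPM with PBS, 631 to 766 with WT IL-2, 185 to 434 with H16R and 81.4 to 176 with 3x. All 3 dendritic cell genes and both NK cell and neutrophil genes also fell with every molecule, and no marker gene of these lists was at 0 in a group. Under MHC II block, the B cell sums of PBS (41.2 to 99.1 CPM) and 3x (41.8 to 89.4) overlapped and none of the 4 passed the test with either mutein, while both CD8 T cell genes rose with H16R and 3x. The summed level of the 5 monocyte and macrophage genes was 13.8 to 20.9 CPM with PBS, 31.9 to 56.3 with H16R and 45.2 to 61.8 with 3x, which did not overlap, and 1 of the 5 genes passed the test with each mutein. With WT IL-2 under MHC II block, all 5 monocyte and macrophage genes and both neutrophil genes rose. There MHC II block WT IL-2 replicate 1 stood apart, with 489 CPM of monocyte and macrophage genes (23.9 to 53.9 in the others), 143 of neutrophil genes (2.62 to 18.2) and 414 of B cell genes (62.8 to 94.7). Without this library and isotype PBS replicate 1, the members called under MHC II block were 60 higher and 4 lower with 3x, 58 and 3 with H16R, and 5 and 4 with WT IL-2. The part of such cells in the members' changes was not tested.

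The antibody arms were also compared directly within each treatment. Relative to isotype, MHC II block was accompanied by 0 members higher and 1 lower in PBS Tregs (6.01% and 8.13% of all genes), 0 and 6 with WT IL-2 (18.2% and 15.3%), 32 and 0 with H16R (15.4% and 15.2%), and 41 and 2 with 3x (27.2% and 26.9%). The median log2 fold changes were 0.03, -0.04, 0.18 and 0.18. Without isotype PBS replicate 4 the count in PBS Tregs was again 0 and 1, and the median was -0.05. At an adjusted p under 0.1, DESeq2 and the other settings tried moved the mutein counts by less than 1.5 times, except where a library was left out. With H16R, 13 members were higher without isotype H16R replicate 4. With WT IL-2 none was lower without isotype WT IL-2 replicate 3a. Plasma cell sums were 81.4 to 176 CPM with 3x under isotype and 584 to 1368 under MHC II block. With H16R they were 185 to 434 and 545 to 1207. WT IL-2 had 631 to 766 and 1559 to 3178, and PBS 1519 to 1844 and 614 to 1942. With 3x, B cell sums were 21.2 to 26.6 and 41.8 to 89.4 CPM, and monocyte and macrophage sums 17.8 to 23.3 and 45.2 to 61.8. The part of such cells in the counts between the arms was not tested.

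Ndufa11 read 29.6, 26.3, 26.1 and 26.3 CPM with 3x and isotype, against 40.9, 32.4, 42.5 and 40.3 with 3x and MHC II block, where no library overlapped. Its log2 fold change between the arms was 0.51 ± 0.09 (adjusted p = 3.7e-05). Ndufc1, at 12.2, 11.8, 11.3 and 11.7 CPM with 3x and isotype, was 0.50 higher with MHC II block, and Ndufa4, Ndufb7 and Cox6a1 were 0.43, 0.43 and 0.40 higher. With H16R, Ndufc1 was 0.41 higher (0.0047), and Ndufb7, Ndufb2, Ndufa11 and Ndufb8, all of the membrane arm of complex I, were 0.33 to 0.38 higher.

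Whether the response to a molecule differed between the arms was tested as an interaction, which sets the response under MHC II block against the response under isotype. For 3x, 19 members had a larger response under MHC II block and 1 a smaller one (20.3% and 18.7% of all genes), with a median difference of 0.16. For H16R these were 8 and 0 (10.6% and 8.47%), with a median of 0.14. For WT IL-2 they were 0 and 0 (11.7% and 7.98%) by edgeR and 0 by DESeq2, with 0 members at an unadjusted p under 0.05 and a median of -0.08. Without isotype PBS replicate 4 the medians were 0.24 for 3x, 0.24 for H16R and -0.01 for WT IL-2, and without replicate 1 they were 0.09, 0.09 and -0.14. The counts of larger responses stood close to the background for 3x and at it for H16R. They also turned on PBS libraries: without isotype PBS replicate 4 the count was 51 larger and 1 smaller for 3x, and 43 and 0 for H16R. Without replicate 1 it was 12 and 2 for 3x, and without replicate 3 it was 3 and 0 for H16R. The shares of all genes in these fits are not given, so these counts cannot be read against the background above. The count between the arms with H16R, which uses no PBS library, also went from 32 to 53 without isotype PBS replicate 4. With WT IL-2, 3 members had a smaller response under MHC II block once isotype PBS replicate 1 was left out, and 0 differed without replicate 4. Markers of other cells also responded differently in the arms. With 3x, the plasma cell sums given above lay below all PBS libraries under isotype and overlapped PBS under MHC II block. The part of such cells and of proliferation in these differences was not tested.

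**Figure D3:**
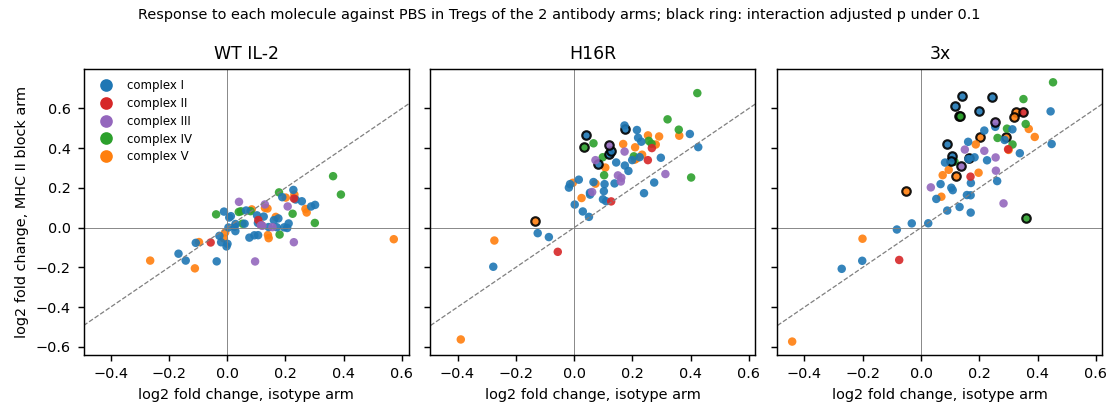
Log2 fold change of each tested member against PBS under isotype (x axis) and under MHC II block (y axis), in a panel for each IL-2 molecule, with points coloured by complex. The 2 axes use different PBS mice within the same fit; most points of H16R and 3x lie above the diagonal, with medians of 0.14 and 0.32 for H16R and 0.17 and 0.35 for 3x.

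Uqcrfs1, the Rieske iron-sulfur protein of complex III, passed the interaction test for both muteins, and its level in the shallow library was not low. It read 81.8, 75.6, 76.8 and 81.6 CPM in isotype PBS Tregs and 70.8, 69.0, 68.8 and 72.7 in MHC II block PBS Tregs. The arms did not overlap, and this was the sole member that passed between the arms without IL-2 (-0.18 ± 0.05, adjusted p = 0.034). With 3x it read 99.1, 90.1, 90.6 and 94.9 under isotype and 105, 90.7, 102 and 108 under MHC II block, which overlapped. The interaction was 0.28 for 3x and 0.29 ± 0.07 for H16R (adjusted p = 0.012 for H16R), and 0.26 and 0.28 without isotype PBS replicate 4.

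Cox7a2l differed from most members in its pattern. In isotype Tregs it read 316, 297, 329 and 320 CPM with PBS, 358, 296, 352 and 299 with WT IL-2, 407, 409, 460 and 391 with H16R, and 391, 395, 420 and 406 with 3x. Both muteins lay above all PBS and WT IL-2 mice, and the log2 fold changes against PBS were 0.40 ± 0.06 for H16R (adjusted p = 2.6e-06) and 0.36 ± 0.06 for 3x (1.3e-05), against 0.04 ± 0.06 for WT IL-2 (0.62). Under MHC II block it read 333, 337, 307 and 328 with PBS, 402, 351, 380 and 408 with H16R, and 336, 343, 341 and 323 with 3x. There the H16R mice stayed above PBS (0.25 ± 0.06, adjusted p = 0.00082) and the 3x mice overlapped it (0.05 ± 0.06, 0.49). Its interaction with 3x was -0.31 ± 0.09 (0.0078), the only negative call among the members, and that with H16R was -0.15 ± 0.09 and did not pass (0.26). The plot of single members by library sets it beside 5 others.

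**Figure D4:**
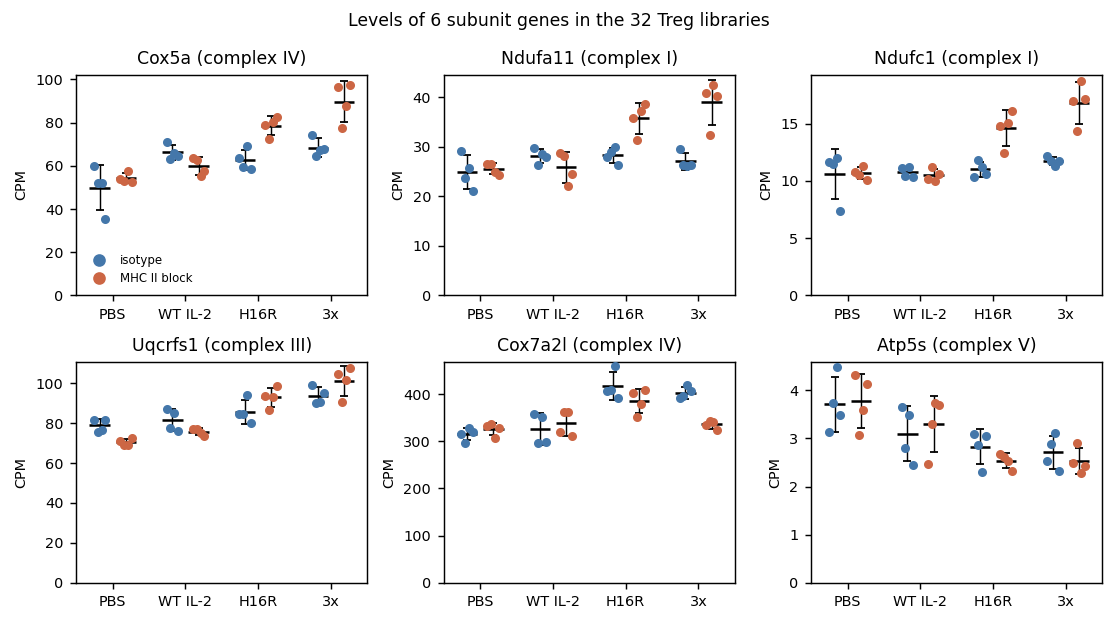
CPM (y axis, linear) of 6 subunit genes in the 32 Treg libraries by IL-2 treatment (x axis), with isotype and MHC II block shown side by side. Points are libraries and bars group means; Cox7a2l is highest in isotype H16R (391 to 460 CPM), whereas Cox5a and Ndufa11 are highest in MHC II block 3x (77.5 to 97.4 and 32.4 to 42.5 CPM).

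The IL-2 molecules were given at the same dose and sampled at the same time, and were set against each other. Their exposure need not be equal. In the study's serum measurements, in male mice at this dose, 3x remained detectable for longer than WT IL-2 and H16R. Under isotype few members passed between molecules. H16R against WT IL-2 gave 1 member higher and 0 lower (8.87% and 9.77% of all genes), which was Cox7a2l at 0.36 ± 0.06 (adjusted p = 0.00037). For 3x against WT IL-2 there were 10 higher and 1 lower (16.9% and 17.7%), among them Cox7a2l at 0.32 and Uqcrfs1 at 0.21. Fitted on only the groups compared, 4 members passed for H16R and 23 for 3x against WT IL-2, and without isotype PBS replicate 4 these were 3 and 17. Between 3x and H16R no member passed edgeR's test (0 and 0, against 5.76% and 5.77%) or that of DESeq2 (0), while 4 of 75 members had an unadjusted p under 0.05. The 95% intervals of the difference of 3x from H16R were -0.06 to 0.32 for Cox5a, -0.11 to 0.21 for Ndufa8 and -0.23 to 0.12 for Ndufa11 on the log2 scale.

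Under MHC II block both muteins stood apart from WT IL-2. H16R against WT IL-2 gave 59 members higher and 1 lower (25.5% and 32.0% of all genes), with a median of 0.27, and 3x against WT IL-2 gave 61 and 2 (30.0% and 38.7%), with a median of 0.31. All 4 H16R libraries lay above all 4 of WT IL-2 for 41 of 77 members, and all 4 of 3x for 53, against 19.3% and 24.1% of all genes tested. The difference was 0.57 ± 0.10 in Cox5a for 3x (adjusted p = 1.4e-05) and 0.38 ± 0.10 for H16R (0.0022). Between the muteins, 5 members were higher with 3x and 1 lower (12.7% and 12.6%). Sdhd read 76.9, 69.2, 82.0 and 80.7 CPM with H16R and 89.3, 78.2, 86.2 and 98.3 with 3x, and was 0.18 ± 0.06 higher with 3x (0.026) with overlapping libraries. Ndufc2, of the membrane arm of complex I, and Atp5f1, of the stalk of the ATP synthase, were 0.20 and 0.18 higher and were named after their values were seen, and Cox7a2l was 0.20 lower. This count was 1 without MHC II block 3x replicate 4 and 14 without MHC II block 3x replicate 2.

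In Tcons, which carried 2 mice per group, contrasts were averaged over the other factor. Of 76 members tested, 58 rose and 0 fell with WT IL-2 (21.9% and 16.4% of all 12529 genes), 60 and 0 with H16R (21.7% and 19.2%), 10 and 0 with 3x (8.46% and 9.33%), and 63 and 0 with MHC II block against isotype (20.1% and 20.2%). The medians were 0.21, 0.22, 0.14 and 0.17. The median with WT IL-2 was 0.11 without isotype WT IL-2 replicate 1 and 0.28 without replicate 2. The counts lean on single mice as well. With WT IL-2, 27 members rose without MHC II block WT IL-2 replicate 1, with H16R 32 without isotype H16R replicate 1, and with 3x between 1 without isotype PBS replicate 1 and 50 without isotype WT IL-2 replicate 1.

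Relative to the mean of the isotype PBS Tregs, the members' mean log2 level was -0.05 and -0.01 in the isotype PBS Tcons, 0.31 and -0.03 in the isotype WT IL-2 mice, 0.19 and 0.13 with H16R, and -0.02 and -0.00 with 3x. Under MHC II block it was 0.06 and 0.10 with PBS, 0.30 and 0.27 with WT IL-2, 0.32 and 0.23 with H16R, and 0.32 and 0.28 with 3x. The isotype WT IL-2 mice were far apart, and the 3x Tcons overlapped PBS under isotype and lay above it under MHC II block. The isotype WT IL-2 Tcons also differed in markers, with Treg genes at 585 CPM in replicate 1 and 1448 in replicate 2, plasma cell genes at 2685 and 1361, and erythroid genes at 224 and 14.0. The difference of the 3x response between the arms was not tested in Tcons.

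Cox5a read 55.2 and 58.6 CPM in isotype PBS Tcons, 70.1 and 53.8 with WT IL-2, 68.4 and 64.8 with H16R, and 55.0 and 52.2 with 3x, and under MHC II block 64.2 and 59.8, 78.5 and 77.2, 69.3 and 70.6, and 77.1 and 75.2. Its log2 fold change was 0.24 ± 0.07 with WT IL-2 (adjusted p = 0.025), 0.23 ± 0.07 with H16R (0.032), 0.12 ± 0.07 with 3x (0.27) and 0.27 ± 0.05 with MHC II block (0.0035). Cox7a2l rose in Tcons with H16R (0.21 ± 0.04, adjusted p = 0.0053) and 3x (0.25 ± 0.04, 0.0064), and its fold change with WT IL-2 was 0.09 ± 0.04 (0.16). In isotype Tcons it read 301 and 297 CPM with PBS, 336 and 303 with WT IL-2, 354 and 337 with H16R, and 368 and 395 with 3x, so that the mutein mice lay above the others. In Tcons, markers of other cells rose with WT IL-2, with all 3 plasma cell genes, all 5 monocyte and macrophage genes and all 4 erythroid genes higher. With H16R all 3 plasma cell and all 4 erythroid genes rose as well and 0 of the 5 monocyte and macrophage genes passed, with plasma cell sums of 1667 to 1857 CPM under isotype and 1692 to 1720 under MHC II block, against 872 to 1247 and 703 to 1067 with PBS. Erythroid sums with H16R were 42.5 to 52.4 and 20.0 to 40.6 CPM, against 5.15 to 8.99 and 3.01 to 6.09 with PBS. With MHC II block against isotype, all 5 monocyte and macrophage, all 3 dendritic cell and both neutrophil genes rose and all 4 B cell genes fell. In 3x Tcons the monocyte and macrophage sums were 33.3 to 51.8 CPM under isotype and 165 to 173 under MHC II block, where PBS Tcons had 104 to 114 and 33.3 to 35.2, so that in PBS Tcons these sums were lower under MHC II block. The part of such cells in these counts was not tested.

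Tregs were set against the Tcons of the same mice in each treatment. In PBS mice 25 of 76 members were higher in Tregs and 8 lower (26.4% and 29.1% of 12845 genes), with a median of 0.07. With WT IL-2 there were 2 and 27 (34.4% and 34.0%; median -0.08), with H16R 20 and 18 (37.9% and 35.7%; -0.01) and with 3x 46 and 7 (38.4% and 36.0%; 0.15). The count of lower members with WT IL-2 was near the background, and both counts with H16R were under it. These values average over the antibody arms. With 3x and isotype, the members' mean log2 level was 0.25 and 0.15 in Treg replicates 1 and 2, against -0.02 and -0.00 in their Tcons. Under MHC II block it was 0.42 and 0.24, against 0.32 and 0.28. The arms were not tested apart here. The median with H16R was 0.01 without Treg isotype H16R replicate 1, and that with WT IL-2 was -0.02 without Treg isotype WT IL-2 replicate 1. That with 3x was 0.10 without Treg MHC II block 3x replicate 1. The split depended on the scaling. With libraries scaled to their totals, the counts became 31 and 13 with 3x, 7 and 43 with H16R, 1 and 49 with WT IL-2 and 17 and 11 in PBS mice. For H16R the even split became mostly lower. The change of scaling moves all genes of a library alike, and the shares of all genes called under it are not given here. The TMM factors were 0.961 and 0.965 in isotype H16R Treg replicates 1 and 2, and 1.06 and 1.04 in their Tcons. In PBS mice the count was 10 and 4 without Treg MHC II block PBS replicate 1, and with WT IL-2 it was 5 and 12 without Treg isotype WT IL-2 replicate 1.

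Ndufb7, a membrane-arm subunit of complex I, was higher in Tregs by 0.35 with PBS, 0.30 with H16R and 0.51 with 3x, and stood at 0.07 with WT IL-2. Its level in isotype mice was 37.5 and 41.2 CPM in PBS Tcons, against 53.9, 49.9, 52.3 and 35.7 in PBS Tregs, where the last is the shallow library. Sdha was lower in Tregs by 0.24 with 3x, 0.18 with H16R and 0.10 with WT IL-2, and Atp5g1 by 0.20, 0.41 and 0.31. Uqcrh was higher in Tregs with PBS (0.19), H16R (0.23) and 3x (0.17), and its difference with WT IL-2 was 0.03.

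The response of Tregs was also set against that of Tcons. For 3x, 22 members responded more in Tregs and 7 less (27.5% and 25.4%), with a median difference of 0.10. For H16R it was 2 and 13 (25.5% and 22.1%; -0.05) and for WT IL-2 0 and 20 (14.4% and 11.6%; -0.13). The count of larger responses for 3x was thus near the background, and both counts for H16R were under it. With 3x, Cox5a (0.39 ± 0.08, adjusted p = 0.0019) and Sdhd (0.34 ± 0.08, 0.0038) responded more in Tregs, and Ndufs7 (-0.39) and Ndufa5 (-0.37) less. Atp5g1 responded less in Tregs with H16R (-0.50) and WT IL-2 (-0.40). Without Treg isotype PBS replicate 1, the counts for H16R and WT IL-2 were each 5, 1 higher and 4 lower in the first and 0 and 5 in the second. The median difference for 3x was 0.04 without Treg MHC II block 3x replicate 1.

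**Figure D5:**
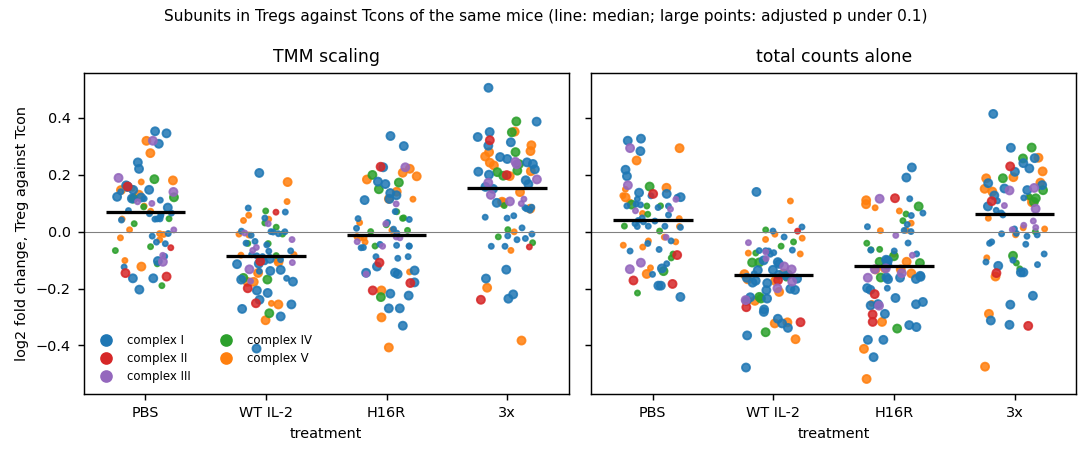
Log2 difference between Tregs and Tcons of the same mice for each member (points, y axis), averaged over the antibody arms, by treatment (x axis), with the median marked. Medians are 0.15 with 3x, -0.01 with H16R, -0.08 with WT IL-2 and 0.07 in PBS mice, and those of WT IL-2 and H16R are -0.15 and -0.12 when libraries are scaled to their totals.

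In the rest of the respiratory pathway the counts are read against the 34.7% of all genes called higher and 38.3% called lower with 3x under MHC II block, and 32.7% and 33.8% with H16R. With 3x, 21 of 46 assembly factors rose and 10 fell (median 0.09), and among 77 mitochondrial ribosomal proteins 40 rose and 14 fell (0.15). In the citric acid cycle and pyruvate dehydrogenase list, 12 of 16 rose and 1 fell (0.17), with Cs, citrate synthase, named after its value was seen, at 0.55 ± 0.05. Of 11 genes of coenzyme Q synthesis 1 was higher and 5 were lower, which for the falls is near the background. Cycs, the electron carrier cytochrome c, also named in this way, rose by 0.49 ± 0.06. With H16R under MHC II block, 16 assembly factors rose, a share near the background, and 10 fell, 9 of 16 genes of the citric acid cycle list rose and 1 fell, and 0 of 11 genes of coenzyme Q synthesis rose and 6 fell.

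Of 13 known regulators of mitochondrial genes 3 were higher and 7 lower with 3x under MHC II block, and whether this differs from all genes was not tested. The following were named after their values were seen. Ppargc1b, a coactivator of mitochondrial biogenesis, fell by 1.08 ± 0.12 and Myc, a growth regulator, by 0.77 ± 0.09. Esrra, the nuclear receptor that works with these coactivators, rose by 0.45 ± 0.06, and Gabpa, a subunit of GABP, by 0.20 ± 0.05. Nrf1 (0.04 ± 0.04) and Tfam (0.05 ± 0.03), the factor that packages mitochondrial DNA, did not pass.

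Proliferation genes and short genes were set beside the members. Of 20 cell cycle genes, 17 rose and 0 fell with 3x under MHC II block (median 1.45), 15 and 0 with H16R (0.80), and 7 and 3 with WT IL-2 (0.24). Under isotype 13 rose and 4 fell with 3x (0.89), 11 and 5 with H16R (0.36), and 12 and 4 with WT IL-2 (0.37), and in Tcons 18 and 0 with WT IL-2 (0.72), 16 and 0 with H16R (0.68) and 0 and 0 with 3x (0.10), an average over the arms. The mean log2 level of the cell cycle genes in 3x Tcons, relative to isotype PBS Tregs, was -0.06 and -0.45 under isotype (PBS Tcons 0.17 and 0.06) and 0.76 and 0.72 under MHC II block (PBS Tcons 0.23 and 0.25). Glycolysis genes rose as well with 3x under MHC II block, 12 of 16 higher and 2 lower (0.40). Cytoplasmic ribosomal protein genes went the other way, with 1 of 79 higher and 69 lower (-0.30). Of the members tested in Tregs, 51 had transcripts under 1000 bases. Among the 711 other genes that short, 42.2% were higher with 3x under MHC II block (median 0.12) and 41.5% with H16R (0.14), against 34.7% and 32.7% of all genes and 60 and 57 of the 75 members. Elsewhere the short genes came closer to the members. Between the arms with H16R, 24.9% of them were higher and 1.69% lower, with a median of 0.14 against 0.18 for the members. In Tcons the medians of the short genes were 0.16 with WT IL-2, 0.16 with H16R, 0.12 with 3x and 0.14 with MHC II block. Those of the members were 0.21, 0.22, 0.14 and 0.17. Of the short genes 37.1%, 37.5%, 16.6% and 47.3% were called higher, against 76.3%, 78.9%, 13.2% and 82.9% of the members. The parts of proliferation and of transcript length in the members' changes were not tested.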

How the data were processed

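Bulk RNA-seq of splenic Tregs (32 libraries, 8 groups of 4) and Tcons (16 libraries, 8 groups of 2 from the same mice) was used, with groups taken from the labels. According to the study's methods, the authors aligned reads with OSA in Omicsoft Array Suite to the mouse B38 genome, and the submitters' processing notes name RSEM, with no version, and DESeq2 1.30.1. The deposited count matrix holds expected counts per gene that the authors estimated with RSEM and did not normalize (72.6% of the values above 0 are whole), and the authors deposited FPKM values beside it, scaled to transcript length and library size. Deposited tables of the authors' own comparisons, which hold fold changes, p-values and test statistics, were not used. No per-sample column was left unused (0).

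Expected counts were rounded and tested in R 4.3.3 with edgeR 4.0.16 (glmQLFit and glmQLFTest, TMM scaling). Genes entered if they were protein-coding in GENCODE mouse release 21, which matched 51519 of 53345 names (96.6%), had more than 0.5 CPM in at least 4 libraries and had no empty cell. This left 75 of the 77 members in Tregs. Ndufb4c, listed as a processed pseudogene, and Atp5k, with an empty cell in isotype PBS replicate 4, had no Treg test, and Atp5k was tested in Tcons and between cell types. Tregs were fitted as 8 groups and Tcons as 8 groups. The comparison of Tregs with Tcons carried a term for each mouse, since both libraries of a pair come from the same animal: the deviations of a mouse's 2 libraries from their group means had a mean correlation of 0.323, from 0.082 to 0.594 over 16 pairs. P-values were adjusted by Benjamini-Hochberg over all genes tested, and a call is an adjusted p under 0.1. Errors are standard errors, and CPM values use TMM library sizes. No 2 libraries of a group were copies (lowest chi-square per gene 3.88 over 56 pairs). P-values measure the spread between mice of 1 experiment.

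The fit was first tested on simulated data with known changes.

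Named singly were the highest member of each complex by FPKM, the 5 largest rises and falls past the threshold for each molecule in isotype Tregs and between the arms, the 5 smallest adjusted p of each interaction, alternative isoforms, the Sdh genes and the genes on either side of the level for membership. The members and lists were chosen with earlier results of these data known. The result for the list of subunits and carriers outside the naming rule was 3 of 5 tested higher and 0 lower with 3x under MHC II block. Alternatives were DESeq2 1.42.0, total-count scaling, other filters, thinning, fits of only the groups compared, replicate blocks and leaving out each library. Limma 3.58.1 served edgeR. A further B cell marker is not reported here.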

Additional observations from a re-analysis of the deposited data

Results flagged for a closer look

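With 4 mice in each Treg group, the lowest or highest library of a group was listed if its gap to the nearest other mouse, as a share of the group's range, passed Dixon's critical value, for the members' mean level and single members. This held in 8 of 112 groups, where chance alone gives about 1 in 20. The members' mean log2 level was -0.34 in isotype PBS replicate 4, against 0.07 to 0.14 in the other 3 mice, and 0.24 in MHC II block 3x replicate 2, against 0.42 to 0.43. In the first of these libraries Ndufc1 was at 7.38 CPM (11.4 to 12.0 in the others), and in the second Ndufa4 was at 73.2 CPM (89.2 to 89.9) and Atp5g2 at 16.4 CPM (9.90 to 11.0). Ndufa11 was at 29.6 CPM in isotype 3x replicate 1 (26.1 to 26.3 in the others). Atp5b was at 594 CPM in MHC II block WT IL-2 replicate 2 (563 to 568), and Atp5g2 at 18.7 CPM in isotype H16R replicate 3 (8.93 to 10.5).

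The response to a mutein differed between the antibody arms in 8 members for H16R, 8 larger and 0 smaller under MHC II block (10.6% and 8.47% of all genes), and 20 for 3x, 19 and 1 (20.3% and 18.7%), by edgeR's quasi-likelihood test of the interaction. The shares of members with larger responses were thus at the background for H16R and close to it for 3x. For H16R the log2 differences were 0.29 in Uqcrfs1, 0.24 in Ndufs4, an accessory subunit of complex I, 0.37 in Cox7a2, 0.42 in Ndufc1 and 0.25 in Ndufb5. For 3x they were 0.50 in Ndufa11, 0.28 in Uqcrfs1, 0.52 in Ndufc1, 0.24 in Atp5b and -0.31 in Cox7a2l, where Cox7a2l alone responded less under MHC II block.

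The response of Tregs differed from that of Tcons in 29 members for 3x, 22 larger and 7 smaller in Tregs (27.5% and 25.4% of all genes), in 15 for H16R, 2 and 13 (25.5% and 22.1%), and in 20 for WT IL-2, 0 and 20 (14.4% and 11.6%), by the same test with a term for each mouse.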

How the results depend on the processing

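The direction of the medians and most counts held under DESeq2, other filters, thinning and the replicate blocks. The settings were run for single members in the 3 comparisons with isotype PBS, where 36 named members gave 4428 log2 fold changes over all settings, total-count scaling and the fits without 1 library included. Of these 4153 kept their direction and their side of the threshold, 106 passed only under the alternative, 144 passed only in the reported fit and 25 changed sign. Fitted on only the groups compared, the members called were 9 for WT IL-2, 23 for H16R and 28 for 3x against isotype PBS, 16 for WT IL-2 under MHC II block, 4 for H16R and 23 for 3x against WT IL-2 under isotype, 1 for 3x against H16R under isotype, and 4 for the H16R interaction. The count for WT IL-2 under MHC II block was 3 with no CPM filter, 2 with libraries thinned to the smallest and 1 with all biotypes, and that for the H16R interaction was 4, and 3 when thinned. The setting with all biotypes, that with empty cells as 0, and the removal of isotype PBS replicate 1 together with MHC II block WT IL-2 replicate 1 were chosen after seeing the data. With both libraries left out, 4 members were called between the arms in PBS Tregs, 3 in the WT IL-2 interaction and 4 in the H16R interaction. With total-count scaling, 1 was called for 3x against H16R under isotype, 50 for Tregs against Tcons with WT IL-2, and 31 and 27 for the difference of the responses to WT IL-2 and H16R, and the median for Tregs against Tcons with H16R was -0.12. The shares of all genes called under these settings are not given here, and the cause of the changes was not tested.

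Replicate numbers of the Treg groups share only a number: the mean correlation of deviations between same-numbered libraries was 0.041, 0.059, -0.013 and -0.019 for numbers 1 to 4, against -0.005 for different numbers, and not every pair was above 0.1. With a replicate block, 3 members were called between the arms with WT IL-2 and 1 for 3x against H16R under isotype, and no other count moved by over 1.5 times. Without the mouse block ("no replicate block"), Tregs against Tcons gave 21 in PBS mice, and the difference of the responses gave 8 for WT IL-2 and 8 for H16R.

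Leaving out 1 library at a time, the members called ranged from 12 to 33 for WT IL-2 against isotype PBS and from 2 (without MHC II block PBS replicate 1) to 15 (without isotype PBS replicate 4) under MHC II block. Between the arms they ranged from 1 to 3 with PBS, 0 to 11 with WT IL-2 and 13 to 53 with H16R. Between molecules under isotype they ranged from 1 to 3 for H16R against WT IL-2, 7 to 17 for 3x against WT IL-2 and 0 to 3 for 3x against H16R, and from 1 to 14 for 3x against H16R under MHC II block. Interactions ranged from 0 to 3 for WT IL-2, 3 to 43 for H16R and 14 to 52 for 3x, where the highest values of H16R and 3x came without isotype PBS replicate 4. Tregs against Tcons ranged from 14 to 40 with PBS and 17 to 41 with WT IL-2, and the difference of the responses from 5 to 39 with WT IL-2 and 5 to 18 with H16R, where 5 came without Treg isotype PBS replicate 1. In Tcons the range was 27 to 71 for WT IL-2, 32 to 70 for H16R and 1 to 50 for 3x. For H16R and 3x against PBS under MHC II block it was 56 to 66 and 61 to 68. The shares of all genes called in these fits are not given here.

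The members whose values changed sign in the comparisons with isotype PBS had not passed the test there. With WT IL-2, Ndufc1 was at -0.0267 with total-count scaling, -0.0143 with the replicate block and -0.0150 when thinned, Ndufs4 was at -0.0198 with total-count scaling, and Ndufs7 was at 0.0319 with both libraries left out. With H16R, total-count scaling gave -0.0301 for Cox7a2 and -0.0244 for Ndufc1. Leaving out 1 library, the log2 fold changes with WT IL-2 ranged from -0.0926 to 0.14 for Cox6a1, -0.121 to 0.026 for Cox7a2, -0.00802 to 0.0821 for Cox7a2l, -0.0251 to 0.192 for Ndufb2, -0.119 to 0.0683 for Ndufc1, -0.0303 to 0.049 for Ndufs4 and -0.0964 to 0.0324 for Ndufs7. With H16R they ranged from -0.00595 to 0.169 for Atp5d, -0.237 to 0.19 for Atp5g2, -0.0798 to 0.159 for Cox6a1, -0.055 to 0.0984 for Cox7a2, -0.0715 to 0.152 for Ndufb2 and -0.08996 to 0.103 for Ndufc1, and with 3x from -0.0157 to 0.161 for Atp5d, -0.124 to 0.217 for Atp5g2 and -0.0139 to 0.223 for Cox6a1. Depth limits the low members most, of which Atp5s is the lowest at 3.02 CPM.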

Other observations

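The 13 mitochondrially encoded subunits were not analysed here. However, 7 pseudogene rows of the matrix are at least 95% identical to a mitochondrially encoded subunit gene over at least 80% of that gene's length. Of these rows 5 stood over 100 CPM. The highest was Gm28661, a nuclear copy of mt-Co2, at a median of 2613 CPM, followed by copies of mt-Co3 (Gm28437, 2516 CPM) and mt-Atp6 (Gm10925, 2428 CPM). These copies are 100% identical to the mitochondrial genes over the match, so that reads of the 2 cannot be told apart there. Gm13341, which is 95.9% identical to mt-Co2, stood at a median of 0.405 CPM. Gm28661 was at 2092 ± 49.5 CPM (SD, n = 4) in isotype PBS Tregs, 3037 ± 236 with 3x, 2856 ± 137 with H16R and 2484 ± 100.5 with WT IL-2. Under MHC II block these were 2188 ± 116 with PBS, 2580 ± 43.7 with 3x, 2360 ± 182 with H16R and 2511 ± 233 with WT IL-2. Unlike most nuclear-encoded members, this row was thus higher with the muteins under isotype than under MHC II block, a difference that was not tested. Not every copy rose with IL-2 under isotype: Gm28438, a copy of mt-Nd3, was at 144.6 ± 17.7 CPM in isotype PBS Tregs, 135.9 ± 5.74 with 3x, 106.8 ± 2.49 with H16R and 103.9 ± 7.60 with WT IL-2. In isotype PBS Tcons the mean of Gm28661 was 3831 CPM, above every Treg group mean.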
